A study of Mus musculus with 4 samples.

Results

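The immediate early genes described here are Fos, Fosb, Jun, Junb, Jund, Egr1, Ier2, Zfp36, Nr4a1 and Dusp1. They were taken by symbol, and all 10 were found among the 32285 genes of the files. Their transcripts were followed in single donor-derived hematopoietic stem and progenitor cells (HSPCs), the bone marrow cells that rebuild and maintain the blood. Of the 4 samples in the labels, 2 have wild-type donor cells and 2 have donor cells heterozygous for a mutation of Srcap, whose product is the motor of a chromatin remodelling complex that loads the histone variant H2A.Z. All 4 samples are of the C57BL/6 strain, and in all 4 the CD45.2+ donor cells were sorted from marrow at 20 weeks of a competitive transplantation, in which donor and competitor marrow share a recipient. About 20000 cells per sample went into droplet capture with a 3′ chemistry, and the change in the Srcap allele, the number of mice per sample and any sort markers besides CD45.2 are not given in the labels used here.

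The cells fall into 4 libraries by the suffix of their barcode, called library 1 to library 4, which the labels used here do not link to the samples. Mutant against wild type is therefore not analysed here, and no mean, SD or p-value over libraries is given. The libraries held 112027160 to 144385614 unique molecular identifiers (UMIs, 1 per captured transcript), and 41122 of 44151 barcodes were kept, 9026 to 12418 per library with a median of 9824 to 10226.5 UMIs. Of 40943 barcode sequences among the kept cells, 178 occurred in more than 1 library. Cells were assigned to types by marker genes, and a cell needed 3 markers of a type and more than of any other. The gates covered 12 types, each called "-like", and left 19714 cells ungated. Hematopoietic stem cell (HSC)-like cells numbered 4437, megakaryocyte-like 4282, erythroid-like 381, lymphoid-primed-like 6214 and granulocyte-like 2054, and 48 dendritic-like cells were too few to use. The gates fix the levels of their own markers, so these are a description: Procr stood at 130 to 159 CPM (UMIs of a gene per 1000000 UMIs of the summed cells) in HSC-like cells and at 9.73 to 14.4 CPM in megakaryocyte-like cells, and Pf4 at 1807 to 2502 CPM in megakaryocyte-like and 47.9 to 131 CPM in HSC-like cells. HSC-like cells made up 7.48%, 9.54%, 9.97% and 17.6% of the kept cells of libraries 1 to 4.

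Immediate early genes are transcribed within minutes of a stimulus, from factors that already sit on their promoters, and need no new protein to be switched on. Growth factors, cytokines, adhesion and the handling of tissue can all switch them on, chiefly through MAP kinases acting on serum response factor with its ternary complex partners, and on the cAMP response element binding protein CREB. Fos and Jun family proteins pair to form AP-1, Egr1 is a zinc finger factor that restrains stem cell division and mobilisation in mice, and several of the transcripts carry AU-rich elements in the 3′ untranslated region (UTR) through which they are degraded within a short time.

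The sequences behind those routes of induction and decay are given first, for the members that carry the motifs named here. RefSeq promoter windows of GRCm38.p6, from 250 bases before to 50 bases after the annotated start, were found for 8 of the 10 members. Of these, 4 are shown, chosen for the motifs that capitals mark: TGACG, the core of the CREB site, its full form TGACGTCA, and the CArG box that serum response factor binds.
Fos promoter (chr12:85473640-85473939, plus strand): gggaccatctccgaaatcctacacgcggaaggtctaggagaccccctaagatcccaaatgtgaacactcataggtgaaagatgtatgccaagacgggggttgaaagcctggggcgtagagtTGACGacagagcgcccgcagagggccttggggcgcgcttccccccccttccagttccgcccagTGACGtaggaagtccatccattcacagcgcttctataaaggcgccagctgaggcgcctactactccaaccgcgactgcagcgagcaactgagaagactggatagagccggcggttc
Junb promoter (chr8:84978699-84978998, minus strand): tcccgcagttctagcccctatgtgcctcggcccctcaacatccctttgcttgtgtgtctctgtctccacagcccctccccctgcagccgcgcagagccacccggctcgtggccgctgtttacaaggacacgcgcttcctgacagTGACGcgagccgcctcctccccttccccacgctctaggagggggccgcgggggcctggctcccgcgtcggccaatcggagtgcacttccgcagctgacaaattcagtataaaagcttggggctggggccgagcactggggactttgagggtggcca
Zfp36 promoter (chr7:28379179-28379478, minus strand): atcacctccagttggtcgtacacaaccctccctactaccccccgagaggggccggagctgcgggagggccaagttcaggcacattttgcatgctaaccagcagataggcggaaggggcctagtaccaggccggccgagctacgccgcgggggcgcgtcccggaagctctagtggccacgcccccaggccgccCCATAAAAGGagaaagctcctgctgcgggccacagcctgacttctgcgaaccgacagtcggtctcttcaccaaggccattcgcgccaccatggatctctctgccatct
Dusp1 promoter (chr17:26508423-26508722, minus strand): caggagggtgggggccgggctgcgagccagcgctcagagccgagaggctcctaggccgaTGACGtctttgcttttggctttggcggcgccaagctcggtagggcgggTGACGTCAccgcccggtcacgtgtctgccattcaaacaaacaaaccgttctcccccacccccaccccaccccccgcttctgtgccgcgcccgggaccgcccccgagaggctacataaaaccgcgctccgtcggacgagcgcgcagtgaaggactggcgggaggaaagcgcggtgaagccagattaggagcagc
Both strands were searched, and the full form holds the core. TGACG stood in 5 of the 8 member windows (Fos, Fosb, Junb, Nr4a1 and Dusp1), against 20.8% of all 32851 windows, and TGACGTCA in 1 (Dusp1), against 1.79%. The CArG box stood in 1 (Zfp36), against 1.63%, the AP-1 site TGANTCA in none, against 7.81%, the SP1 site GGGCGG in 6, against 35.7%, and the EGR site GCGNGGGCG in 3 (Fosb, Zfp36 and Nr4a1), against 5.55%. A match describes letters in this window and is neither a bound site nor a cause, and RefSeq and GENCODE starts differ: the Jund window lies before the GENCODE gene, and those of Zfp36, Dusp1 and Nr4a1 lie inside it, away from its first base. AU-rich decay motifs were sought in the 3′ UTRs of GENCODE M21 transcripts of GRCm38. The nonamer TTATTTATT, in capitals, is shown with 8 bases on each side for every member that holds it in its 3′ UTR.
Fos site, ending 152 bases before the end of the UTR: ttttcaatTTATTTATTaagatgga
Zfp36 site, ending 177 bases before the end of the UTR: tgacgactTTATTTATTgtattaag
Dusp1 site, ending 579 bases before the end of the UTR: gctggtccTTATTTATTtaacaccc
Dusp1 site, ending 290 bases before the end of the UTR: ttttacctTTATTTATTtttgtgta
Within the last 300 bases of the UTR, the nonamer stood in 3 of 10 members, against 2.23% of 16583 genes, TATTTAT in 5, against 10.2%, and the pentamer ATTTA in 8, against 45.3%. Fosb and Ier2 lacked the pentamer in that window.

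The genes for the members lie apart in the GRCm38 build, with Junb at chr8:84974484-84978718, Ier2 at chr8:84661331-84662852 and Jund at chr8:70698949-70700616 on chromosome 8, and Fosb at chr7:19302696-19310051 and Zfp36 at chr7:28376784-28380253 on chromosome 7. Jun was at chr4:95049034-95052222, Fos at chr12:85473890-85477273, Nr4a1 at chr15:101254269-101274795 and Dusp1 at chr17:26505590-26562128. Counts in the 3′ chemistry come from the end of the transcript, so values of different genes are compared only as detected UMIs.

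Over all kept cells the AP-1 partner genes were detected unevenly. Jund, the family member that stays on in unstimulated cells, gave a UMI in 68.6% of cells, Jun in 44.3% and Junb in 34.7%, while Fosb gave one in 15.3% and Fos, the classical inducible partner, in 5.26%. Ier2, a small nuclear protein gene, was found in 45.3% of cells, Zfp36, which encodes the tristetraprolin protein that binds AU-rich elements and shortens mRNA life, in 21.1%, and Dusp1, a phosphatase that switches MAP kinases off, in 11.6%. Egr1 was found in 6.81% and Nr4a1, an orphan nuclear receptor, in 1.49%. Where Fos was found it was mostly a single molecule, since 85.0% of its 2162 positive cells held 1 UMI.

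Levels differed more between cell types than between libraries. Of the spread of log2(CPM + 1) over 11 types and 4 libraries, the type accounted for 92.7% in Jund, 89.6% in Jun, 88.1% in Junb, 61.2% in Egr1 and 52.2% in Nr4a1, and the library for 0.45% in Ier2 to 5.77% in Fos. The rest was 45.6% in Nr4a1 and 34.0% in Egr1. These shares are a description of 44 values per gene, and 11 types take up more of such a spread than 4 libraries even without a difference. Library 1 was the lowest for 5 members and library 4 the highest for 4.

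**Figure D1:**
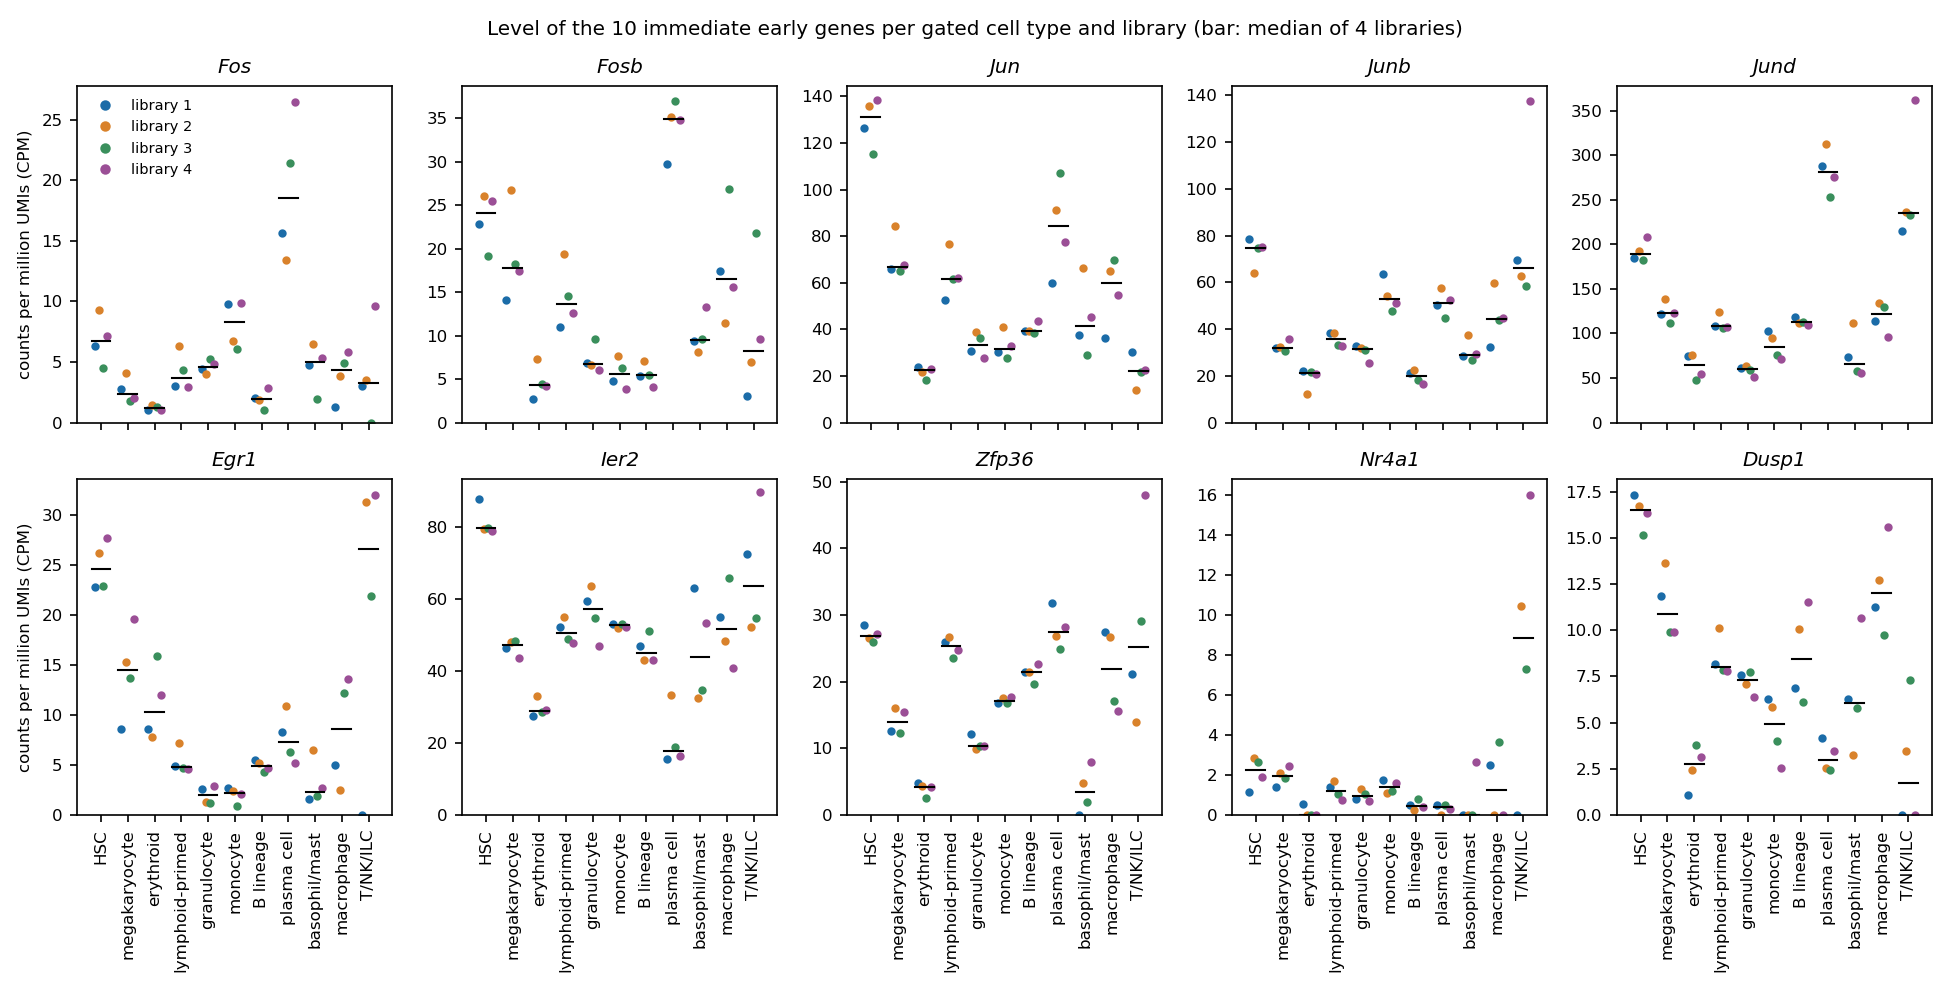
CPM of each member (linear axes from 0) in 11 gated cell types, with 1 point per library and a bar at the median of 4 libraries. HSC-like cells stood highest by median for Jun, Junb, Ier2 and Dusp1, plasma cell-like cells for Fos, Fosb, Jund and Zfp36, and the few T, NK or innate lymphoid-like cells for Egr1 and Nr4a1.

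Jun was highest in HSC-like cells, at 126, 136, 115 and 138 CPM in libraries 1 to 4. Plasma cell-like cells followed at 60.0 to 107 CPM and megakaryocyte-like cells at 65.0 to 84.5 CPM, and erythroid-like cells stood at 18.4 to 23.6 CPM. Every HSC-like library was above every plasma cell-like library, and the HSC-like range overlapped with that of no other type. Junb stood at 78.5, 64.0, 74.5 and 75.2 CPM in HSC-like cells, and the T, NK or innate lymphoid-like cells overlapped with them at 58.3 to 138 CPM, the highest value coming from library 4. That gate held 36 to 56 cells per library, so its values rest on few molecules.

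Jund was highest in plasma cell-like cells, at 288, 313, 253 and 275 CPM. HSC-like cells stood at 185, 193, 183 and 208 CPM, above all 4 libraries of megakaryocyte-like cells at 112 to 139 CPM. The T, NK or innate lymphoid-like cells overlapped with plasma cell-like cells, at 215 to 362 CPM. Fos and Fosb were also highest in plasma cell-like cells, Fos at 15.7, 13.4, 21.4 and 26.5 CPM and Fosb at 29.8, 35.1, 37.0 and 34.8 CPM. For both genes every plasma cell-like library lay above every library of every other type. In HSC-like cells Fos reached only 6.28, 9.31, 4.50 and 7.18 CPM, a range that overlapped with monocyte-like cells at 6.101 to 9.83 CPM, and Fosb 22.8, 26.1, 19.2 and 25.5 CPM, overlapping with megakaryocyte-like cells at 14.1 to 26.8 CPM. Erythroid-like cells gave 2 or 3 Fos UMIs per library, 9 in all. In plasma cell-like cells a single immunoglobulin gene, Ighm, held 83090 to 113787 CPM, and its part in the CPM of other genes there was not tested.

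Egr1 was higher in HSC-like, megakaryocyte-like and erythroid-like cells than in granulocyte-like and monocyte-like cells. It stood at 22.8, 26.2, 22.9 and 27.7 CPM in HSC-like cells, at 8.59, 15.3, 13.7 and 19.6 CPM in megakaryocyte-like cells and at 7.78 to 15.9 CPM in erythroid-like cells, against 2.65, 1.28, 1.24 and 2.91 CPM in granulocyte-like and 0.87 to 2.74 CPM in monocyte-like cells. All HSC-like libraries exceeded all megakaryocyte-like ones, and megakaryocyte-like and erythroid-like cells overlapped. Macrophage-like cells overlapped with erythroid-like ones, and lymphoid-primed-like cells were low as well, at a median of 4.77 CPM. The T, NK or innate lymphoid-like cells ranged from 0 to 32.0 CPM.

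Ier2 was highest by median in HSC-like cells, at 87.7, 79.4, 79.7 and 78.9 CPM, and lowest in plasma cell-like cells, at 15.7, 33.2, 19.0 and 16.4 CPM. Its HSC-like range overlapped with T, NK or innate lymphoid-like cells, and its plasma cell-like range with erythroid-like cells. Dusp1 was highest by median in HSC-like cells too, at 17.3, 16.7, 15.1 and 16.3 CPM, overlapping with macrophage-like cells. It stood at 2.44 to 4.18 CPM in plasma cell-like and 1.07 to 3.81 CPM in erythroid-like cells. The cells with the most Fos and Fosb by type thus held little Ier2 and Dusp1. Across the 11 types the Pearson r of median log2(CPM + 1) was 0.88 for Fosb with Jun, the highest of 45 pairs, and -0.25 for Fos with Ier2, the lowest. The types share libraries and depth, and the correlations are descriptions.

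Zfp36 was level over several types, at 26.0 to 28.5 CPM in HSC-like, 23.5 to 26.8 CPM in lymphoid-primed-like and 24.8 to 31.8 CPM in plasma cell-like cells. Below B lineage-like cells, at 19.6 to 22.7 CPM, each next type stood apart from the one above it: monocyte-like at 16.7 to 17.8 CPM, megakaryocyte-like at 12.3 to 16.1 CPM, granulocyte-like at 9.89 to 12.2 CPM and erythroid-like at 2.54 to 4.84 CPM. Nr4a1 was near the limit of the data everywhere. It gave 1.16, 2.83, 2.66 and 1.89 CPM in HSC-like cells, and 0 or 1 UMI per library in erythroid-like cells, where the limit that a count of 0 allows (3 UMIs) is 1.46 to 1.90 CPM. Most neighbours in the order of types overlapped for most members.

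The genes whose profile over the 11 types was most like the mean profile of the members were Rras (r = 0.93), a small GTPase, Slc50a1 (0.92), Slc41a1 (0.92), Itsn1 (0.90), Ctso (0.89), Cltb (0.89), Impact (0.88), Pim1 (0.87), a kinase, Lpp (0.87) and Gm4070 (0.86), among 8009 genes that reached 20 CPM in a type. Of these, 8 were highest in HSC-like cells; Pim1 ran from 41.7 CPM in erythroid-like to 291 CPM in HSC-like cells. Genes were ranked by this r, so its size is no separate result.

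The first question was whether the members form a baseline of the stem or megakaryocyte lineage or stand at one level in all types. The summed level of the 10 members was 577, 580, 542 and 606 CPM in HSC-like cells. It was 318, 382, 314 and 337 CPM in megakaryocyte-like, 306, 365, 306 and 303 CPM in lymphoid-primed-like, 219, 228, 216 and 183 CPM in granulocyte-like and 166, 166, 144 and 152 CPM in erythroid-like cells. HSC-like cells and the plasma cell-like cells, at 504 to 584 CPM, stood above these 4 types in each library. The T, NK or innate lymphoid-like cells summed to 414, 435, 456 and 727 CPM, with library 4 above every HSC-like library. Within each library the log2 ratio of CPM + 1 was taken, and a gene was called when all 4 libraries put it at 1.5-fold or more on 1 side, a rule of size that carries no p-value. The addition of 1 CPM understates ratios of low genes. All genes at 5 CPM or more, averaged over both sides, form the background, apart from the marker genes of the gates. Medians over members use all 10.

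Against megakaryocyte-like cells, HSC-like cells had higher Junb (median log2 ratio 1.16), Fos (1.00), Zfp36 (0.90), Jun (0.87) and Ier2 (0.78), 5 of 10 members, where 7.14% of 9922 genes were called higher. No member was called lower, where 4.12% of genes were. The members' median was 0.75 (0.68 to 0.91 over libraries) and that of all genes tested 0.01. Jund (0.65) missed the rule through library 2 alone, at 0.47. Egr1 (0.72) was higher in 4 of 4 libraries but ran from 0.48 in library 4 to 1.31 in library 1, where the megakaryocyte-like level was lowest. Fosb (0.30, with library 2 at -0.03), Dusp1 (0.54) and Nr4a1 (0.07) were not called. Fos and Nr4a1 lay under 5 CPM on average, so 8 members belonged to the background.

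Against erythroid-like cells, 8 of 10 members were called higher in HSC-like cells and 0 lower, beside 20.7% of 9702 genes higher and 9.18% lower. Jun was 2.56 higher on the log2 scale, or 5.90-fold, Zfp36 2.40, Dusp1 2.22, Fosb 2.12, Junb 1.79, Jund 1.63 and Ier2 1.43. The call of Fos rests on 2 or 3 erythroid-like UMIs per library and no fold is given for it. Erythroid-like UMIs were also few for Dusp1 (2 to 6 per library), Zfp36 (4 to 9) and Fosb (5 to 15). Their erythroid-like medians of 2.78, 4.27 and 4.31 CPM lie under the filter, which they passed through the HSC-like side. Egr1 (1.23) missed the rule through library 3 alone, at 0.50, and Nr4a1 missed it through library 1 on the erythroid-like counts given above. The members' median was 1.85 (1.80 to 2.00) and that of all genes 0.13, and 8 members passed the filter.

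Against lymphoid-primed-like cells, the HSC-like level was higher for Egr1 (2.05, with 1.73 to 2.35 over libraries), Junb (1.08), Jun (1.02), Dusp1 (0.92) and Jund (0.77). These 5 of 10 stand beside 9.66% of 9918 genes higher and 4.47% lower, with no member lower. The lymphoid-primed-like median of Egr1, 4.77 CPM, lies under the filter, which Egr1 passed through the HSC-like side. Ier2 (0.70) missed the rule through library 2, at 0.52. Zfp36 hardly differed, at 0.13 with a range of -0.01 to 0.14. The members' median was 0.74 (0.58 to 0.96), that of all genes 0.05, and 9 members passed the filter.

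Against granulocyte-like cells, 7 of 10 members were called higher and 0 lower, beside 17.1% of 9786 genes higher and 6.88% lower. Egr1 led at 3.15 on the log2 scale, or 8.85-fold, followed by Jun (1.90), Fosb (1.71), Jund (1.61), Zfp36 (1.28), Junb (1.24) and Dusp1 (1.11). The Egr1 ratio rests on 10 to 29 granulocyte-like UMIs per library. Its granulocyte-like median of 1.97 CPM lies under the filter, which Egr1 passed through the HSC-like side. Fos (0.46, with library 3 at -0.18) and Ier2 (0.54) were not called, and Nr4a1 (0.76) missed the rule through library 1, at 0.25. Over the members the median was 1.26 (1.09 to 1.42), that of all genes 0.16, and 9 members passed the filter.

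Megakaryocyte-like cells in turn stood above erythroid-like cells for Fosb (1.83), Dusp1 (1.75), Zfp36 (1.67), Jun (1.64) and Jund (1.02). The ratios of Dusp1, Zfp36 and Fosb rest on the same few erythroid-like UMIs, 2 to 6, 4 to 9 and 5 to 15 per library. Their erythroid-like medians lie under the filter, which they passed through the megakaryocyte-like side. Nr4a1 was also called, on 0 or 1 erythroid-like UMI per library, which makes 6 of 10 beside 12.7% of 9321 genes higher and 4.19% lower. Egr1 did not separate these types, at 0.33 with libraries from -0.19 to 0.90. Over all 10 the median was 1.29 (0.79 to 1.48), that of all genes 0.13, and 8 members passed the filter. The comparisons share their HSC-like, megakaryocyte-like or erythroid-like cells, so they are not independent of each other.

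**Figure D2:**
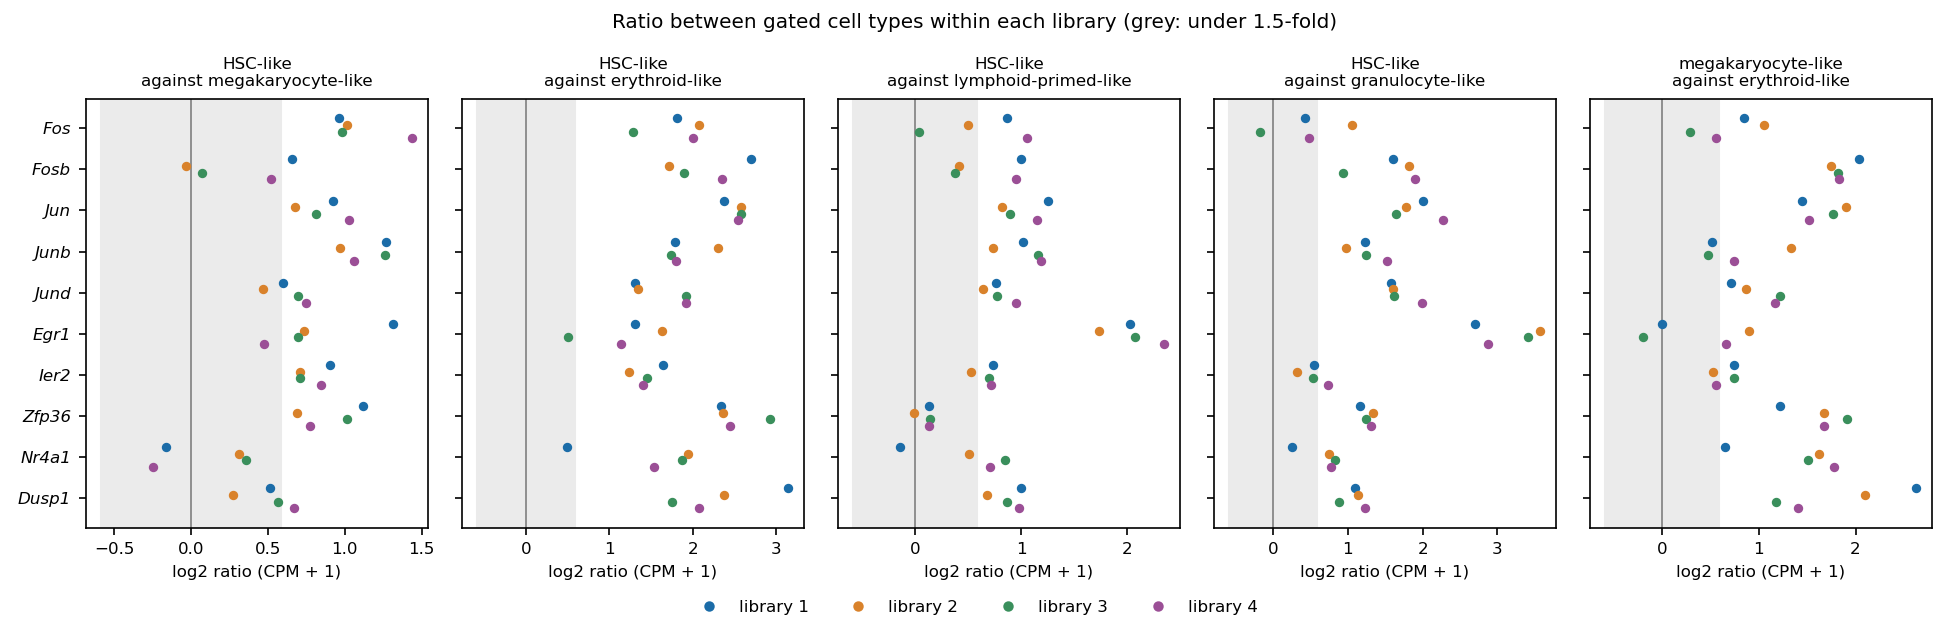
Log2 ratio of CPM + 1 between cell types (x axis) for each member, 1 point per library, with the zone under 1.5-fold in grey. In the HSC-like against granulocyte-like panel all 4 points of Egr1 lie between 2.70 and 3.57, and in the HSC-like against lymphoid-primed-like panel the points of Zfp36 lie around 0.

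Other lists were compared in the same way, and the genes named from them, up to 4 per list and direction, were those called with the largest ratio in the library nearest to 0. The counts of every list stand beside the shares of all genes tested. Called higher in HSC-like cells were 7.14% (against megakaryocyte-like), 20.7% (erythroid-like), 9.66% (lymphoid-primed-like) and 17.1% (granulocyte-like). Called lower were 4.12%, 9.18%, 4.47% and 6.88% in the same order. For megakaryocyte-like against erythroid-like cells the shares were 12.7% higher and 4.19% lower. Of 38 other primary response genes, 22 passed the filter against megakaryocyte-like cells, and 6 of them were higher in HSC-like cells and 1 lower, with a median of 0.53. Socs3 (1.43), a cytokine signal inhibitor, Dusp4 (1.32), Ier3 (1.12) and Csrnp1 (0.92) were among the higher, and Btg2, an antiproliferative gene, was lower (-0.75). Against erythroid-like cells 11 of 17 were higher and 0 lower, with a median of 1.23, among them Rhob (2.28), Dusp2 (2.21), Nfkbia (1.97) and Klf6 (1.90). Against lymphoid-primed-like cells it was 2 higher, Ppp1r15a (1.70) and Ier3 (0.98), and 2 lower, Btg2 (-1.64) and Dusp5 (-1.23), of 21, with a median of 0.21. Against granulocyte-like cells 10 of 21 were higher, with Ppp1r15a (2.00), Ier3 (1.48), Klf6 (1.42) and Klf10 (1.14), and Gadd45b was lower (-1.65), with a median of 0.72. Megakaryocyte-like cells had 6 of 15 higher than erythroid-like cells and 0 lower, with a median of 0.76.

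Of 21 genes that regulate immediate early transcription (serum response and CREB factors, their kinases and MEF2 proteins), 20 passed against megakaryocyte-like cells. None was higher in HSC-like cells and 1 was lower, the MEF2 gene Mef2c (-0.76). Against erythroid-like cells 9 of 21 were higher and 0 lower, among them Rps6ka1 (1.93), Mrtfb (1.77), Elk3 (1.73) and Mef2c (1.52). Against lymphoid-primed-like cells only Crem, a CREB relative, passed the rule among 21, and it was lower (-1.11). Against granulocyte-like cells 3 of 20 were higher, Mef2c (1.06), Mrtfb (1.14) and Elk4 (0.79), and 0 lower, a count near the 17.1% of all genes called higher. Megakaryocyte-like cells had 7 of 20 higher than erythroid-like cells, led by Mef2c (2.28), and 0 lower, beside 12.7% of all genes higher. Of 15 further partners of AP-1 dimers, 13 passed against megakaryocyte-like cells, with Maf (1.66), Bach2 (1.00) and Batf2 (0.89) higher and 0 lower. Against erythroid-like cells 5 of 12 were higher and 0 lower, and against lymphoid-primed-like cells 2 of 12, Maf (1.19) and Nfe2 (0.95), and 0 lower. Against granulocyte-like cells 4 of 13 were higher, Maf (2.28), Batf2 (2.03), Bach2 (1.46) and Nfe2 (0.96), and Jdp2 was lower (-0.89).

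Heat shock response genes, which rise with protein damage, were not higher as a list in HSC-like cells. Of 15, 12 passed the filter in each comparison, and the shares of all genes called are those given above for the lists. Against megakaryocyte-like cells 0 were higher and 1 lower (Hspa5, -0.77), and against erythroid-like cells 0 higher and 4 lower, with Hspd1 (-1.26), Hsph1 (-1.42), Hspe1 (-1.23) and Hsp90aa1 (-0.96). Against lymphoid-primed-like cells Dnajb4 (0.95) and Bag3 (1.06) were higher and 0 lower, and against granulocyte-like cells Dnajb4 (1.23) and Bag3 (0.95) were higher and Hspa5 (-1.57) and Hspd1 (-0.73) lower. Between megakaryocyte-like and erythroid-like cells 3 were lower, with 0 higher. The list's medians lay between -0.27 and -0.07 in all 5 comparisons. Hspa1a stood at 0.20 to 0.35 CPM in HSC-like cells, and Atf3, another stress-induced member of the wider family, at 0 to 0.19 CPM there against 1.22 to 3.38 CPM in monocyte-like cells.

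The types also differed in the cell cycle. Cells were called resting when they held at most 5 UMIs of 20 S phase genes and at most 1 UMI of 20 G2 and M phase genes. By that measure, chosen after the data were seen, 53.5% of HSC-like, 10.5% of megakaryocyte-like, 16.7% of lymphoid-primed-like, 8.66% of erythroid-like and 4.48% of granulocyte-like cells were resting, and 61.5% of plasma cell-like cells. G2 and M phase genes were lower in HSC-like than in megakaryocyte-like cells for 19 of 20, with a median of -1.24. The resting call leans on depth, since a cell with few UMIs passes it more easily: median UMIs were 7580.5 in resting and 11092 in cycling HSC-like cells, and 7745 and 14356 in megakaryocyte-like cells.

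Within megakaryocyte-like cells, 7 of 10 members were higher in resting than in cycling cells, and 0 lower, beside 3.96% of 9786 genes higher and 6.34% lower. They were Zfp36 (median log2 ratio 1.26), Junb (1.13), Fosb (1.01), Jun (0.89), Dusp1 (0.85), Ier2 (0.77) and Jund (0.74). In each contrast of resting with cycling cells, the genes tested left out the marker genes and the S phase and G2 and M phase lists. Resting megakaryocyte-like cells held 109, 134, 153 and 128 CPM of Jun, against 63.5, 82.1, 60.8 and 62.6 CPM in cycling ones, with no overlap. Egr1 reached 40.7, 26.6 and 56.6 CPM in resting cells of libraries 2 to 4, against 14.1, 13.1 and 16.7 CPM in cycling cells. Library 1 went the other way, with 4.89 CPM in resting and 8.82 CPM in cycling cells. Resting megakaryocyte-like cells numbered 76 to 146 per library. Markers moved with this contrast: 10 HSC markers summed to 710 to 921 CPM in resting and 308 to 430 CPM in cycling megakaryocyte-like cells, and 12 megakaryocyte markers to 1137 to 1462 and 2683 to 3439 CPM. Their part in the result was not tested.

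Lymphoid-primed-like cells showed the same direction for Zfp36 (1.03), Jun (0.99) and Jund (0.95), 3 of 10 members with 0 lower, beside 2.83% of 9652 genes higher and 6.3% lower. Zfp36 stood at 49.6, 47.8, 43.9 and 63.0 CPM in resting and 23.8, 24.9, 21.1 and 20.1 CPM in cycling cells. Fosb (1.02, from 0.35) and Egr1 (0.95, with library 3 at -0.22) varied too much between libraries to be called. HSC-like cells had 0 of 10 members called between resting and cycling cells, beside 1.6% of genes higher and 5.41% lower. Junb came nearest at 0.91, with 0.55 in its lowest library: it stood at 108, 106, 103 and 89.9 CPM in resting and 59.6, 46.1, 51.6 and 61.1 CPM in cycling HSC-like cells, without overlap. Egr1 (0.71), Jund (0.52), Ier2 (0.48), Jun (0.44) and Zfp36 (0.26) were higher in resting cells of 4 of 4 libraries. Fos (0.03), Fosb (0.12), Dusp1 (0.14) and Nr4a1 (-0.07) were not. Whether the difference between states itself differs between types was not tested.

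**Figure D3:**
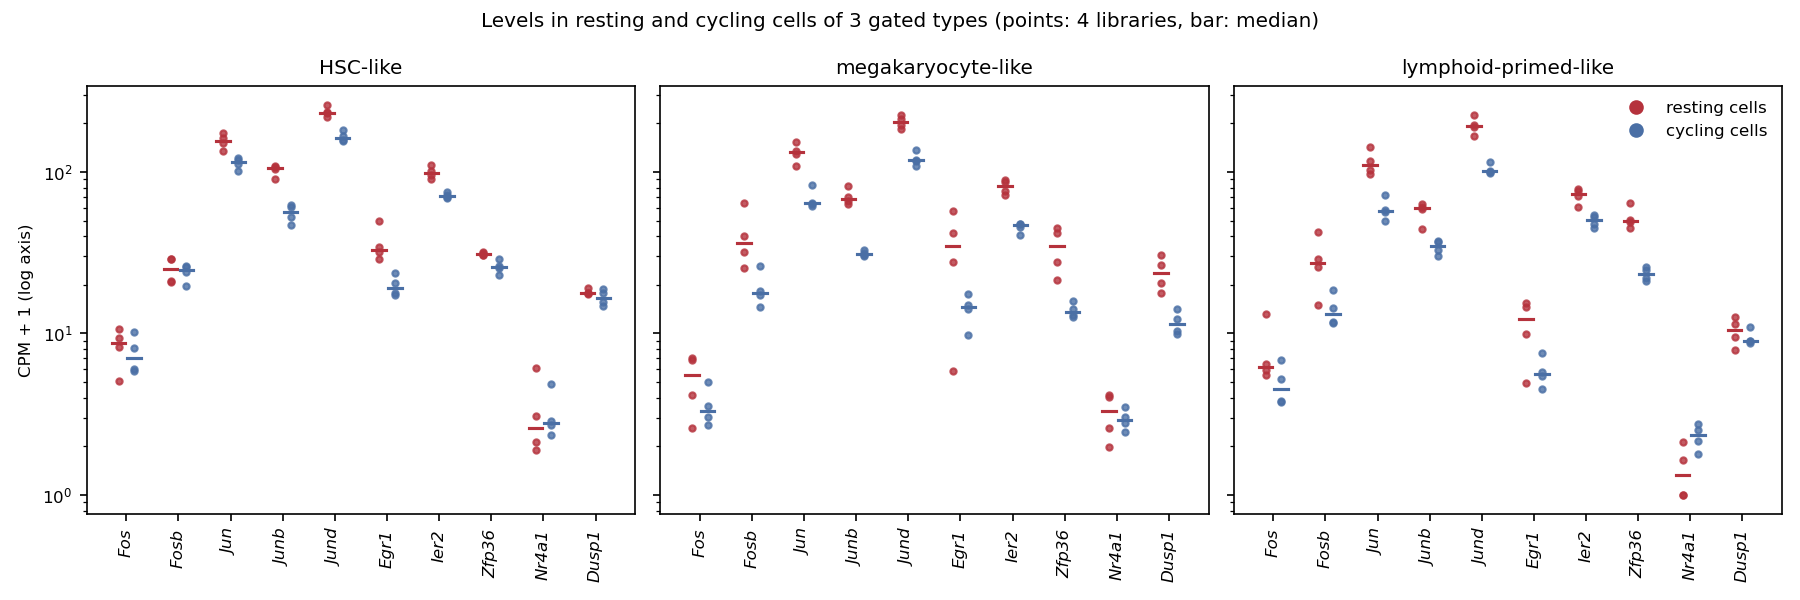
CPM + 1 (log axis) of the members in resting (red) and cycling (blue) cells of 3 gated types, with 1 point per library and a bar at the median. Jun and Junb of megakaryocyte-like cells lie in separate ranges by state, and Egr1 of resting megakaryocyte-like cells has 1 library far below the others.

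Compared in the resting state alone, HSC-like and megakaryocyte-like cells had 0 of 10 members past the rule in either direction, beside 1.11% of genes higher and 0.494% lower. The members' median was 0.22 (0.08 to 0.45), against 0.75 over all cells of the 2 types. Junb had a ratio of 0.68 (higher in 4 of 4 libraries) and Jun of 0.34 (3 of 4). Fosb was lower in resting HSC-like than in resting megakaryocyte-like cells in 4 of 4 libraries (-0.61), at 19.9, 28.1, 20.0 and 28.0 CPM against 24.5, 63.3, 39.1 and 31.1 CPM. Zfp36, called higher over all cells, had a median of -0.12 here. The marker sums given above for resting megakaryocyte-like cells compare with 1576 to 1931 CPM of HSC markers and 242 to 290 CPM of megakaryocyte markers in resting HSC-like cells. All 10 HSC markers were found in resting megakaryocyte-like cells of every library, and their part in the result was not tested.

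Against resting lymphoid-primed-like cells, resting HSC-like cells kept a higher Egr1, at 27.9, 48.9, 31.0 and 33.2 CPM against 8.93, 14.5, 3.95 and 13.6 CPM (median log2 ratio 1.62). Nr4a1 was also called, on 0 to 2 lymphoid-primed-like UMIs per library, which makes 2 of 10 beside 8.29% of genes higher and 6.04% lower. Over all 10 the median was 0.42 (0.34 to 0.63), that of all genes 0.02. Zfp36 was lower in resting HSC-like cells in 4 of 4 libraries (-0.70), with Junb (0.82) and Dusp1 (0.82) higher in 4 of 4. Erythroid-like and granulocyte-like cells held too few resting cells for the same comparison.

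The second question was whether the members are detected together in single cells. Each cell of at least 5000 UMIs was thinned at random to 5000, so that depth is equal, and the cells with both genes of a pair were divided by the number expected from the 2 shares in that type and library. No gated type is known to lack these genes, so no share of free RNA could be set apart. The lowest share of thinned cells with Egr1 was 1.04% in granulocyte-like cells, against 8.59% in HSC-like and 7.21% in megakaryocyte-like cells (medians over libraries). In HSC-like cells Jund was found in 59.2% of thinned cells, Jun in 41.3%, Ier2 in 33.2%, Junb in 30.6%, Zfp36 in 13.2%, Fosb in 10.3%, Dusp1 in 8.14%, Fos in 3.23% and Nr4a1 in 1.11%.

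In the types with the most cells, members coincided slightly more often than their shares give. The median ratio over 45 pairs was 1.13 in HSC-like cells (1.08 to 1.17 over libraries), 1.18 in megakaryocyte-like (1.17 to 1.22), 1.25 in lymphoid-primed-like (1.17 to 1.33) and 1.21 in ungated cells (1.18 to 1.27). Smaller gates varied more: the median was 1.04 in granulocyte-like cells (0.92 to 1.23), 1.16 in monocyte-like (0.86 to 1.24), 1.07 in B lineage-like (0.84 to 1.31), 1.06 in plasma cell-like (1.01 to 1.102), 0.83 in erythroid-like (0.69 to 5.83) and 0.65 in macrophage-like cells (0 to 0.83). In basophil- or mast cell-like cells it was 0 in every library. Few cells with both genes are expected for most pairs in these last gates, which makes ratios of 0 common. Summed over pairs, observed over expected was 1.65 in erythroid-like (1.26 to 3.56) and 1.09 in macrophage-like cells (1.08 to 1.14). In basophil- or mast cell-like cells that sum gave 1.04 (0.65 to 1.22). In HSC-like cells the regulators, over 210 pairs, stood at 1.01 and the heat shock genes at 1.00. The heat shock value cannot show whether those genes coincide, because a gene found in every cell gives a ratio of 1 in any pair. Hsp90ab1, Hspa8 and Hsp90aa1 come near to that by their abundance. Their medians were 2674, 881 and 800 CPM in HSC-like cells with at least 4 members. Among pairs with at least 20 cells expected, 16 of 33 in HSC-like, 18 of 26 in megakaryocyte-like and 17 of 28 in lymphoid-primed-like cells had a ratio above 1 in every library, and 0, 1 and 0 pairs a ratio below 1 in every library.

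Pairs with fewer than 20 cells expected, such as Fos with Fosb in HSC-like cells (24 cells against 13.8 expected), are left out of what follows. Among the other pairs the highest HSC-like ratios held Egr1: 162 cells had Junb and Egr1 where 114 were expected (1.42), 175 had Egr1 and Ier2 where 126 were expected (1.39), and Egr1 with Zfp36 gave 1.32. Fosb with Jun followed at 1.24, with 243 cells against 196 expected. Ier2 with Dusp1 was lowest of these 33 pairs, at 0.92. In megakaryocyte-like cells Egr1 with Ier2 (1.60) and Fosb with Jun (1.55) led, and in lymphoid-primed-like cells Junb with Egr1 (1.69), Egr1 with Ier2 (1.64) and Fos with Junb (1.61). Jun with Ier2 stood at or near 1 in all 3 types, at 1.02, 0.97 and 1.05. Jun with Egr1 gave 1.05 in HSC-like, 0.96 in megakaryocyte-like and 1.30 in lymphoid-primed-like cells.

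**Figure D4:**
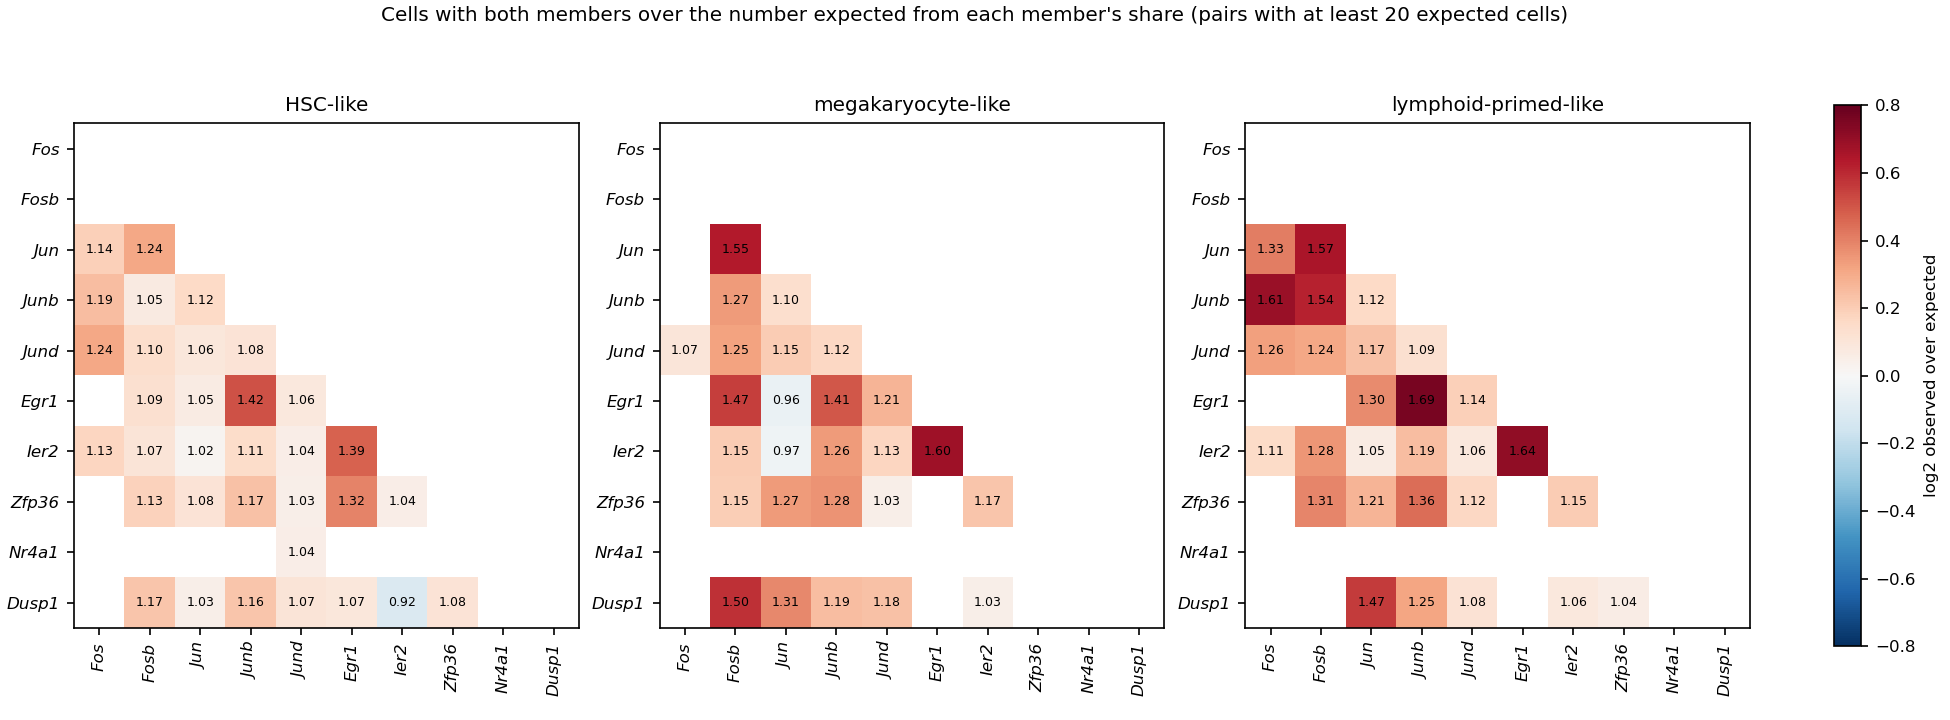
Cells in which both members were found, divided by the number expected from each member's share, for pairs with at least 20 expected cells in 3 gated types (number: ratio over 4 libraries; colour: its log2). In HSC-like cells Junb with Egr1 (1.42) and Egr1 with Ier2 (1.39) are the strongest squares and Ier2 with Dusp1 (0.92) is the weakest.

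Cells with at least 4 of the 10 members made up 13.8%, 15.01%, 12.5% and 13.6% of thinned HSC-like cells in libraries 1 to 4, where independent detection gives 11.1%, 11.7%, 9.61% and 11.8%. In megakaryocyte-like cells they were 3.40%, 6.37%, 3.85% and 4.96%, against 1.99%, 3.83%, 2.05% and 3.07%. Lymphoid-primed-like cells gave 4.41%, 6.92%, 3.43% and 5.03%, against 2.23%, 3.97%, 2.22% and 2.03%. Granulocyte-like cells gave 0.82% to 1.79%, against 0.39% to 0.81%, and erythroid-like cells 2, 0, 1 and 1 cells of 80 to 105. The observed share over the independent one was 1.15 to 1.30 in HSC-like cells. It was 1.61 to 1.88 in megakaryocyte-like, 1.55 to 2.47 in lymphoid-primed-like and 1.42 to 2.20 in granulocyte-like cells. Plasma cell-like cells ran from 0.88 in library 1 to 2.05 in library 3, on few cells. The independent share was larger in HSC-like cells than in these types, which leaves such a ratio less room above 1, and its part was not tested. The exact binomial 95% interval was 11.6% to 16.2% for HSC-like cells of library 1 and 2.47% to 4.56% for its megakaryocyte-like cells, and such intervals cover counting error only. Within each library HSC-like cells were above the other types, except that plasma cell-like cells of library 3 stood at 12.8%, and library 2 was the highest library in HSC-like, megakaryocyte-like, lymphoid-primed-like and ungated cells.

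**Figure D5:**
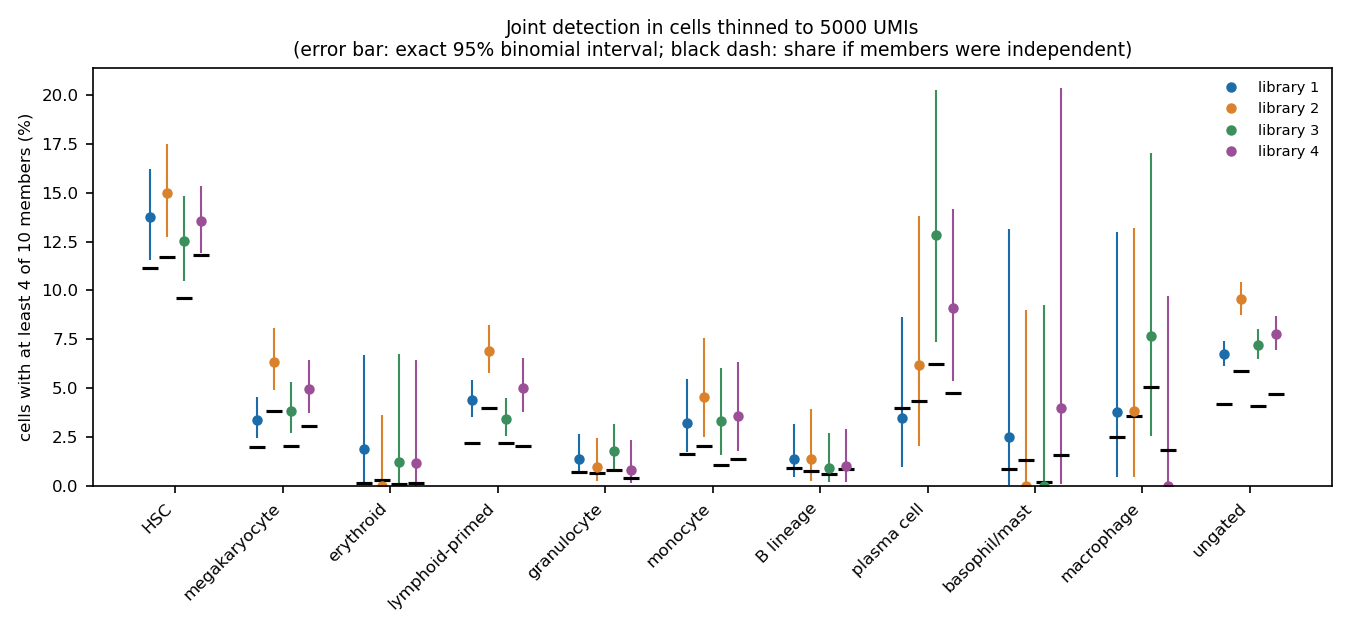
Share of cells with at least 4 of the 10 members (y axis, percent of cells thinned to 5000 UMIs) by gated type and library, with exact binomial 95% intervals and a black dash at the share that independent detection would give. HSC-like libraries lie between 12.5% and 15.01%, megakaryocyte-like and lymphoid-primed-like ones between 3.40% and 6.92%.

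Split by state, the share with at least 4 members was higher in resting than in cycling cells of each library in all 3 types, and the median pair ratio over libraries was lower. The share expected under independence was also larger in resting cells. A ratio to the expected number has less room above 1 where detection is more frequent, and the part of this in the lower ratios was not tested. Resting HSC-like cells had at least 4 members in 17.3%, 20.4%, 15.9% and 15.3% of cells, against 15.2%, 18.4%, 13.3% and 14.7% under independence. Their median pair ratio was 1.04 (0.96 to 1.09). Cycling HSC-like cells had 10.2%, 11.3%, 8.33% and 11.04%, with a ratio of 1.15 (1.11 to 1.18). Resting megakaryocyte-like cells reached 6.87% in library 1 and 21.4%, 16.0% and 17.6% in libraries 2 to 4, with a ratio of 1.05, and cycling ones 3.00%, 4.99%, 2.76% and 3.02%, with 1.18. Resting lymphoid-primed-like cells had 8.24%, 14.8%, 7.69% and 12.95% with a ratio of 1.14, and cycling ones 3.77%, 5.70%, 2.51% and 3.25%, with 1.24.

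HSC-like cells with a UMI of Vwf, the von Willebrand factor gene that marks platelet-biased stem cells, carried slightly more members than those without. The mean number of members per thinned cell was 2.34, 2.36, 2.24 and 2.27 with Vwf and 2.05, 2.08, 1.94 and 2.10 without. Egr1 was found in 11.8%, 15.6%, 11.9% and 12.5% of cells with Vwf and in 7.94%, 7.46%, 7.08% and 8.29% without. Junb was found in 38.2%, 39.3%, 36.6% and 38.1% with Vwf and in 30.3%, 24.6%, 30.5% and 26.5% without. For both genes the ranges did not overlap. Fosb went the other way in libraries 1 to 3, with 8.82%, 9.63% and 6.81% against 10.2%, 13.6% and 10.8%, and stood at 11.1% against 10.5% in library 4. Lower with Vwf were also Fos in libraries 2 to 4, Dusp1 in libraries 1 and 2, Zfp36 in libraries 2 and 4 and Ier2 in library 4. The part of the cell cycle in this split was not tested. Vwf was not among the markers of the gates, and the split rests on 1 UMI in cells thinned to equal depth.

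HSC-like cells in which many members were found held less cell cycle RNA than those with few. Cells with at least 4 members (118 to 212 per library) were set against those with at most 1 (299 to 487), at 20 CPM or more. Of 6106 genes outside the members, 22 (0.36%) were higher by 1.5-fold in 4 of 4 libraries and 174 (2.85%) lower. By the ratio in the library nearest to 0, the 10 genes with the largest increases were Dnm3, a dynamin gene (median log2 ratio 1.85), Neo1, the neogenin receptor gene (1.21), Gem, a small GTPase gene (1.23), Unc45b (0.89), Ctsh (0.93), Myof (0.94), Mycn (0.97), Gda (1.06), Cracr2b (0.95) and Aplp2 (0.70). All 16 tested S phase genes and all 17 tested G2 and M phase genes were lower, with medians of -1.31 and -2.49. Of 14 other primary response genes only Ppp1r15a was called (0.87), with a list median of 0.35. Resting cells made up 62.8%, 55.5%, 70.3% and 67.0% of the cells with many members and 36.8%, 27.1%, 44.4% and 48.5% of those with few. Depth moved too, with median UMIs of 7048 to 8081.5 and 9223 to 10756, and its part in the difference was not tested.

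Within resting HSC-like cells alone (76 to 142 with many and 84 to 236 with few members), 2 of 5941 genes (0.0337%) were higher by the rule and 0 lower. They were Dnm3 (1.16, at 39.6 against 15.4 CPM) and Pqlc3 (0.86). Gem had a median of 1.34 there but 0.01 in its lowest library, and Mycn 0.35. These values describe unlabelled libraries and carry no test.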

How the data were processed

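The authors deposited 1 aggregated matrix of raw UMI counts, in whole numbers. The matrix header names Cell Ranger 6.1.2, and mm10 is the build in the submitters' processing notes. The counts carry no scaling per cell, and all columns were used (0 left out). Barcodes under 500 genes or over 10% mitochondrial UMIs were removed (3029), and doublets were not removed. A gate needed 3 distinct markers of a type and more than of any other list. Markers found in over 40% of cells were not counted, which left 110 and dropped 9. The gate rule and the resting definition were chosen after seeing the data, and the members and lists with earlier results of these data known. Counts were summed per type and library and scaled to CPM. Ratios used a pseudocount of 1 CPM, a filter of 5 CPM and a limit of 1.5-fold in 4 of 4 libraries. Joint detection used cells thinned to 5000 UMIs (seed 1). Intervals are exact at 95%. Named genes were the members, up to 4 list genes per direction past the limit, the 10 genes most like the members' profile over types, and the 10 with the largest ratio between HSC-like cells with many and few members, the list and ratio genes being ranked by the library nearest to 0. Procr, Pf4, Ighm, Vwf, Hspa1a, Atf3 and the genes named for single cells rich in Fos were chosen after their values were seen. The steps were checked on simulated data. Python 3.11.15, numpy 2.4.6, scipy 1.17.1, pandas 2.3.3, scanpy 1.11.5, igraph 0.11.9 and matplotlib 3.10.9 were used. Alternatives changed the cell filters, gate, pseudocount, thinning, clustering and libraries used.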

Additional observations from a re-analysis of the deposited data

How the results depend on the processing

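No paired analysis was possible because the barcode suffixes are not tied to samples or to their replicate numbers, so no replicate block could be fitted. Ratios between types were taken within each library. Leaving out each library in turn kept every direction, with medians of 0.70 to 0.77 (HSC-like against megakaryocyte-like), 1.84 to 1.91 (erythroid-like), 0.73 to 0.91 (lymphoid-primed-like), 1.24 to 1.27 (granulocyte-like) and 1.19 to 1.29 (megakaryocyte-like against erythroid-like). Other settings moved values without turning a median over the members. For HSC-like against megakaryocyte-like cells the median was 0.93 with a stricter gate, 0.61 with a pseudocount of 5 CPM (3 members called) and 0.22 in resting cells alone (0 called, and Zfp36 reversed from 0.90 to -0.12). Against lymphoid-primed-like cells resting cells alone gave 0.42 (2 called), and cells with at most 1 cycle UMI 1 call. Against erythroid-like cells it was 1.59 without the 8% of cells of highest UMIs, 1.56 with Leiden clusters and 1.51 with the larger pseudocount. Against granulocyte-like cells it was 1.11, 1.65 and 1.09 in the same order, and 1.53 with the stricter gate. For megakaryocyte-like against erythroid-like cells these 3 settings gave 0.98, 0.88 and 0.78. The pair ratio of HSC-like cells was 1.09 with the stricter gate and 1.04 in resting cells. Their share with at least 4 members was 13.7% by median, 15.9% with at most 1 cycle UMI, 12.6% at a mitochondrial limit of 5%, 12.5% with Leiden clusters, 16.6% in resting cells and 2.71% when thinned to 2500 UMIs, which holds fewer molecules per cell by construction. The cause of the other shifts was not tested. The restriction to resting cells was added after seeing the data. It gave no value for erythroid-like or granulocyte-like cells (5 and 11 cells in the smallest library, 20 needed), nor did the limit of 1 cycle UMI for 4 of the 5 comparisons. Of 680 values for single members, 579 stayed within the spread of the libraries, 100 moved and 1 reversed. Besides the called Zfp36, members not called over all cells changed sign in resting cells alone. Against megakaryocyte-like cells Fosb went from 0.30 to -0.61 and Dusp1 from 0.54 to -0.40. Against lymphoid-primed-like cells Zfp36 went from 0.13 to -0.70 and Fosb from 0.68 to -0.14. Low counts limit Nr4a1 throughout, and Fos, Dusp1, Zfp36 and Fosb in erythroid-like cells. They also limit Egr1 in granulocyte-like cells, with 10 to 29 UMIs per library. Gates rest on few markers: 2234 of 4437 HSC-like cells held exactly 3.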

Other observations

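A few cells carried the members at far higher levels than any type. Only 6 of 41122 cells held 9 or more Fos UMIs, a limit set after the values were seen, and the next highest cell held 7. They held 9 to 32 Fos UMIs and 56 to 116 UMIs of all members, where the median over all cells was 4, with 9 or 10 of 10 members detected. Of them, 5 were ungated and 1 was megakaryocyte-like, 3 came from library 1 and 3 from library 2, and mitochondrial UMIs made up 2.63% to 4.66%. Together they held 110 Fos UMIs, 4.10% of all Fos UMIs. None of the 4437 HSC-like cells held 5 or more. Since Fos chose these cells, its level of 1739 CPM, against 5.23 CPM in the other 41116 cells, is a description.

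The remaining members and other primary response genes were not used to choose those 6 cells. Fosb stood at 933 CPM against 17.3 CPM (54.1-fold), Dusp1 at 775 against 10.9 CPM (71.0-fold), Egr1 at 443 against 9.37 CPM (47.2-fold), Zfp36 at 490 against 21.3 CPM (23.0-fold) and Jun at 1454.5 against 73.9 CPM (19.7-fold). Junb (10.3-fold), Ier2 (8.77-fold) and Jund (8.09-fold) were less far apart. Of 38 other primary response genes, 19 had over 3 UMIs in these cells, and 11 of the 19 had a Poisson 95% interval more than 1.5-fold above the other cells, beside 80 (2.81%) of 2846 genes with over 3 UMIs, and those named here were chosen after their values were seen: Btg2 (1075 against 36.3 CPM, 29.6-fold), Klf4 (50.6-fold), Nr4a2 (26.8-fold) and Klf2 (24.1-fold). Of 9 heat shock genes with over 3 UMIs 0 did, with Hspa8 at 1.11-fold and Hsp90aa1 at 0.92-fold, and the other 6 of the list had too few UMIs to pass. The intervals cover counting error over the UMIs of 6 cells and not the spread between cells.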
